A study of Arabidopsis thaliana with 18 samples.

Results

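Root hairs are tubular outgrowths of single cells of the root epidermis that extend by growth at the tip and take up water and nutrients. In *Arabidopsis* the epidermal cells that lie over a junction between cortical cells form hairs, and the basic helix-loop-helix factors *RHD6* and, further downstream, *RSL4* switch on the genes that build them. The hair then grows by loosening and extending its wall, by membrane traffic to the tip and by a local supply of reactive oxygen species. Here 9 such genes were followed in seedlings mutant for BORDER (BDR) genes or *FPA*. They were chosen by gene identifier from the 33602 genes of the count table, and all 9 were among the 20143 genes with enough reads to be tested.

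The 9 genes fall into 3 roles. *RHD6* (AT1G66470) and *RSL4* (AT1G27740) are the regulators. *EXPA7* (AT1G12560) and *EXPA18* (AT1G62980) encode expansins, which loosen cell walls, *PRP1* (AT1G54970) and *PRP3* (AT3G62680) encode proline-rich wall proteins, and *LRX1* (AT1G12040) encodes a leucine-rich repeat extensin of the hair wall. *COW1* (AT4G34580), a phosphatidylinositol transfer protein, and *RHD2* (AT5G51060), the NADPH oxidase that makes reactive oxygen species at the tip, act in tip growth.

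Messenger RNA was sequenced from whole 8-day-old seedlings, so root hair transcripts were diluted by those of all other tissues. Seed was kept in the cold for 4 days, and plates were then held at 21 °C with 16 h of light. There were 18 libraries, 3 for each of 6 groups: the triple mutant *bdrs*, the single insertion lines *bdr1* (SALK_142108C), *bdr2* (CS852350) and *bdr3* (SALK_059905), *fpa* (*fpa-7*) and the Col-0 wild type (WT). *bdrs* combines the *bdr1*, *bdr2* and *bdr3* insertions, each line is a single allele, and all groups share the Col-0 background. The BDR proteins resemble transcription elongation factors, FPA is an RNA-binding protein that acts in 3′ end formation, and the study asked whether the loss of BDR proteins lets transcription of one gene disturb the next gene on the strand.

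Libraries held about 11566600 to 21084800 counts each. *BDR1* transcripts fell to 3.47 ± 0.47 CPM (the count scaled to a TMM-adjusted library size, SD, n = 3) in *bdrs* and 7.28 ± 0.49 in *bdr1*, against 29.3 ± 4.4 in WT, and *BDR2* and *FPA* were also called lower in their mutants. *BDR3* was not called lower in *bdrs* (7.29 ± 1.22 CPM) or in *bdr3* (6.46 ± 1.44 CPM), against 8.06 ± 0.55 CPM in WT, so the counts do not check the *bdr3* insertion in either group. Ribosomal RNA genes took 1.01% to 1.78% of the counts in *bdrs* 1, *bdr1* 3 and *fpa* 3, and at most 0.659% in the other 15 libraries. A list of 17 green shoot genes (Rubisco, photosystem and light-harvesting genes) summed to 140394 to 174847 CPM in the 6 libraries numbered 3 and to 90814 to 118511 CPM in the 6 numbered 1, with no overlap.

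The sequences upstream of the 9 genes are shown first, because 5 of them hold the root hair element, a short motif bound by RHD6-type and RSL-type factors. The element was defined by others on the promoters of root hair genes, *EXPA7* and *EXPA18* among them, so its presence there is background. Its core was searched as TGNNNNCACG or TGNNNNNCACG on both strands of the 500 bases upstream of each annotated start (TAIR10.1, RefSeq). The full root hair element restricts further bases around this core. Each match is printed 5′ to 3′ on the strand that carries it, with the core in capitals and up to 6 bases on either side.
EXPA7 full element, chr1:4276425-4276447, gene strand: ggatagTGATCCGCACGtagcca
EXPA7 core only, chr1:4276253-4276274, gene strand: agaaccTGCTCGCACGtcaact
EXPA18 full element, chr1:23331521-23331542, gene strand: caaacaTGAACGCACGtccatt
EXPA18 core only, chr1:23331293-23331314, opposite strand: atgtttTGACACCACGtatcgt
PRP1 full element, chr1:20504768-20504790, opposite strand: taatagTGTTATGCACGattaaa
PRP3 full element, chr3:23182551-23182573, opposite strand: cctaagTGTAATGCACGatcaaa
LRX1 full element, chr1:4069895-4069916, opposite strand: caaactTGGACGCACGttccta
LRX1 core only, chr1:4069739-4069760, opposite strand: gaaaccTGCACGCACGaccaaa

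All 5 genes with a match were the wall genes. The full element lay closest to the start in *EXPA18*, with its core at 36 to 27 bases before it, and farthest in *PRP3*, at 165 to 155 bases. The 500-base windows of *RHD6*, *RSL4*, *COW1* and *RHD2* held none of these letters. Among 26711 protein coding genes, 15.7% of windows of the same length held the core and 1.475% the full element. Of 39 other root hair effector genes, which include extensins, peroxidases and other genes of growing hairs, 22 held the core and 7 the full element. No window held either among the 17 green shoot genes or among 10 expansin, proline-rich protein, oxidase and LRX relatives that are used mainly outside hairs. Of 21 genes of other root tissues, 6 held the core and 1 the full element, and of 11 epidermal patterning genes 1 held the full element. A match describes letters and not a bound site.

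**Figure D1:**
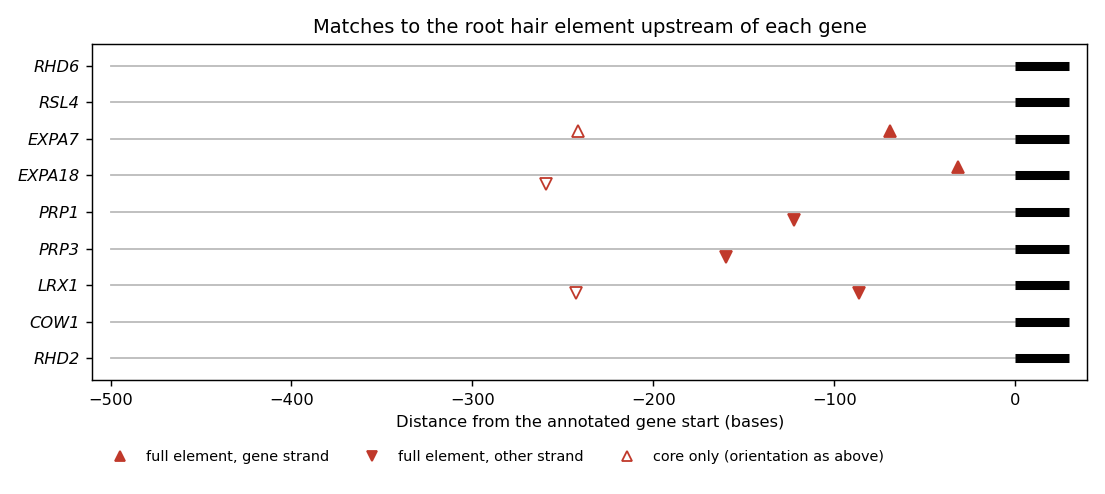
Matches to the root hair element in the 500 bases upstream of the 9 genes (rows), placed by distance in bases from the annotated start, with the black block marking the start of the gene. Filled triangles are full elements and open triangles are cores only, pointing up on the gene strand and down on the opposite strand; only the 5 wall genes carry a match.

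*PRP1* and *PRP3* are printed as whole 250-base upstream windows because their transcripts moved together closely (r = 0.95 over the 18 libraries). Capitals mark the core, which reads in reverse complement here.
PRP1, chr1:20504651-20504900, plus strand: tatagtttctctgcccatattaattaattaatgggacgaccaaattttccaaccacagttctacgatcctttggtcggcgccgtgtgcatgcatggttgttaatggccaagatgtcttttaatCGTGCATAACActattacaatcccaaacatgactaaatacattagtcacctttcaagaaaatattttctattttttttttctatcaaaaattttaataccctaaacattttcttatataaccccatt
PRP3, chr3:23182472-23182721, plus strand: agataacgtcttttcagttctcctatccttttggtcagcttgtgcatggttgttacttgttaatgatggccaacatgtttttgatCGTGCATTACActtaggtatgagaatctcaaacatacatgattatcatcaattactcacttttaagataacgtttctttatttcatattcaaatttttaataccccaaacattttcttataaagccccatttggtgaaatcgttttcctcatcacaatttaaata
The longest run of bases that both windows share is aaacattttcttata, 15 bases that begin 25 bases before the start of *PRP1* and 59 bases before that of *PRP3*. A second shared run, tgcatggttgtta, has 13 bases. The coding sequences of the pair were identical at 83.8% of 918 aligned bases, those of *EXPA7* and *EXPA18* at 75.4% of 761. No 43-base stretch within an exon of any of the 9 genes occurred elsewhere in the genome. Single reads of the length sequenced that lay within an exon therefore had no exact match outside their gene. In *LRX1*, 58 such positions were repeated within the gene itself.

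*EXPA7* lies at chr1:4276505-4277969 on the plus strand, with *HPR3* 473 bases upstream on the same strand. It was the only 1 of the 9 genes with a same-strand neighbour within 500 bases upstream, the arrangement the study was about, against 20.4% of 26712 protein coding genes. *PRP1* had its same-strand neighbour *NP2* at 824 bases. The nearest upstream gene of the other 7 lay on the opposite strand, and for *EXPA18* (chr1:23331563-23333246) it overlapped the gene by 46 bases. Neighbours here were annotated genes of any kind in TAIR10.1, whereas the study used TAIR10 annotations. The 3′ end of *EXPA7* overlapped AT1G12570 on the opposite strand by 23 bases. The study used a stranded library kit, but whether reads were counted by strand is not stated. In the counts, reads of these overlaps therefore cannot be told apart.

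Per length, the wall genes were the more abundant. Over the 18 libraries *PRP3* averaged 25.8 ± 8.1 RPKM (CPM per kilobase of exon, SD over libraries), *EXPA18* 10.05 ± 2.24, *PRP1* 9.96 ± 2.99, *EXPA7* 7.63 ± 1.79 and *LRX1* 3.68 ± 1.39 RPKM. *COW1* stood at 1.23 ± 0.39 RPKM, *RHD6* at 1.19 ± 0.34, *RHD2* at 1.15 ± 0.36 and *RSL4* at 0.710 ± 0.307 RPKM. The regulators therefore rested on few reads: *RSL4* had 2 to 34 counts and *RHD6* 8 to 48 counts per library, against 145 to 810 for *PRP3*.

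**Figure D2:**
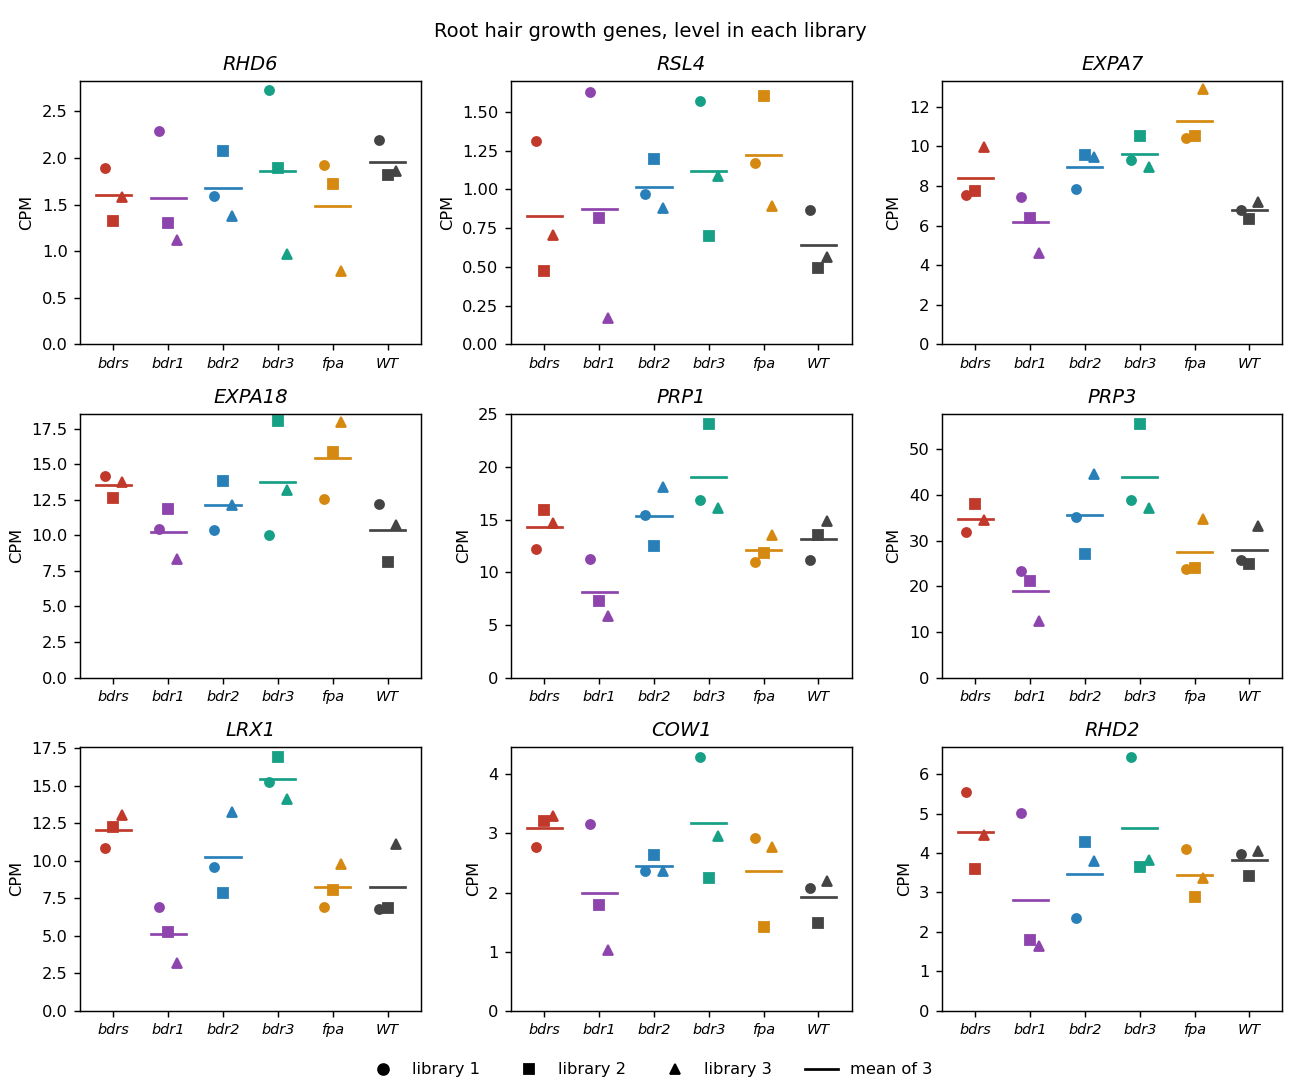
Level of each of the 9 genes in CPM (vertical axis, from 0) in the 3 libraries of each group (horizontal axis), with circles, squares and triangles for libraries 1, 2 and 3 and lines for group means. *EXPA7* was highest in *fpa* (10.4 to 12.9 CPM, against 6.33 to 7.20 in WT), and library *bdr1* 3 was the lowest of all 18 for 7 of the 9 genes.

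In *fpa*, *EXPA7* was higher, and it was the only one of the 9 genes called in any mutant against WT. Its level was 10.4, 10.5 and 12.9 CPM in the *fpa* libraries, against 6.81, 6.33 and 7.20 CPM in the WT libraries. The groups did not overlap, and the means were 11.3 ± 1.4 CPM in *fpa* and 6.78 ± 0.44 CPM in WT (SD, n = 3 each). The log2 fold change was 0.73 ± 0.17 (SE; edgeR adjusted p = 0.0179). *EXPA7* was also above every WT library in every library of *bdrs*, *bdr2* and *bdr3*, as were 8.81%, 2.2% and 4.34% of all genes. All these comparisons share the same 3 WT libraries. *EXPA18*, the other expansin, stood at 12.6, 15.9 and 17.9 CPM in *fpa*, against 12.2, 8.09 and 10.7 CPM in WT, a log2 fold change of 0.57 ± 0.21 that was not called (edgeR adjusted p = 0.127). Here too every *fpa* library was above every WT library. The call for *EXPA7* was lost without WT 2 (edgeR adjusted p = 0.0979) or without *fpa* 3 (0.0817). The genes beside *EXPA7* were not called: the log2 fold change in *fpa* was -0.03 ± 0.23 for *HPR3* and 0.02 ± 0.29 for the overlapping AT1G12570.

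The other 7 genes were not called in *fpa*. *RSL4* had the largest difference, 1.22 ± 0.36 CPM in *fpa* and 0.641 ± 0.197 CPM in WT, with a log2 fold change of 0.96 ± 0.50 (edgeR adjusted p = 0.281). *PRP1*, *PRP3* and *LRX1* had log2 fold changes of -0.13, -0.029 and -0.0076, each with an SE of 0.22 to 0.25. Over all tested genes, 1.31% were called higher and 3.12% lower in *fpa*, so 1 call among 9 genes stands against that background. In 3 of the 9 genes, *EXPA7*, *EXPA18* and *RSL4*, every *fpa* library was above every WT library, which held for 12.7% of all genes, and in none was every *fpa* library below, which held for 14.7%.

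In *bdrs*, none of the 9 genes was called against WT by edgeR, where 1.89% of all genes were called higher and 2.78% lower. DESeq2 called none either, and 2 of the 9 had an unadjusted p under 0.05, both higher, where 7.48% of all genes were higher and 7.18% lower at that threshold. These were *LRX1* and *COW1*. *LRX1* stood at 10.9, 12.2 and 13.1 CPM in *bdrs*, against 6.75, 6.82 and 11.1 CPM in WT, with a log2 fold change of 0.55 ± 0.24 (edgeR adjusted p = 0.281). One WT library lay within the range of the *bdrs* libraries. *COW1* stood at 2.77, 3.21 and 3.29 CPM in *bdrs*, against 2.08, 1.49 and 2.19 CPM in WT, with a log2 fold change of 0.69 ± 0.33 (edgeR adjusted p = 0.330).

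The median log2 fold change of the 9 genes in *bdrs* was 0.31, beside 0.0095 over all tested genes. 8 of the 9 values were positive, and *RHD6* was the exception at -0.30 ± 0.35. For *EXPA7*, *EXPA18* and *COW1* every *bdrs* library was above every WT library, as for 8.81% of all genes. For none was every library below, as for 9.29% of all genes. In bulk seedlings, a change in the number of hair cells and a change in RNA per hair cell cannot be told apart. The study reported short roots in the triple mutant and no clear phenotype in the single mutants. The part of root size in these values was not tested.

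**Figure D3:**
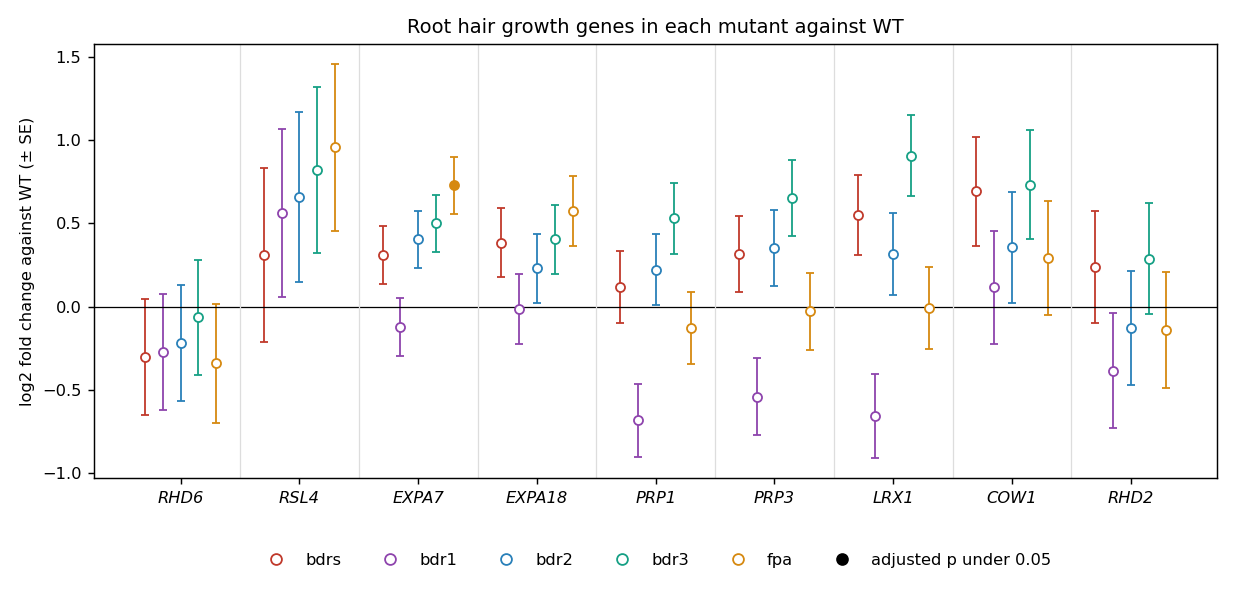
Log2 fold change against WT (vertical axis) of the 9 genes (horizontal axis) in *bdrs*, *bdr1*, *bdr2*, *bdr3* and *fpa*, with bars of ± 1 SE from the edgeR fit. The filled point is *EXPA7* in *fpa* (0.73), the only one with an adjusted p under 0.05; *PRP1*, *PRP3* and *LRX1* were below 0 in *bdr1* and above 0 in the other *bdr* lines.

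Among the single mutants, none of the 9 genes was called against WT. In *bdr1*, 0.00496% of all genes were called higher and 0.0199% lower, in *bdr2* 0.00496% and 0.0348%, and in *bdr3* 0% and 0.0199%. At an unadjusted p under 0.05, *bdr1* had 3 genes lower and *bdr3* had 5 higher, while *bdr2* had 1 higher, *EXPA7*. Of all genes, 2.07% were higher and 3.71% lower at that threshold in *bdr1*, 0.437% and 0.357% in *bdr2*, and 2.92% and 1.51% in *bdr3*. The median log2 fold change of the 9 genes was -0.27 in *bdr1*, 0.32 in *bdr2* and 0.53 in *bdr3*. These 3 comparisons share the WT libraries.

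The 3 genes low in *bdr1* were wall genes. *PRP1* stood at 11.2, 7.24 and 5.84 CPM in *bdr1*, against 11.1, 13.5 and 14.8 CPM in WT, a log2 fold change of -0.68 ± 0.22 (edgeR adjusted p = 0.777). *PRP3* stood at 23.4, 21.3 and 12.4 CPM in *bdr1*, against 25.8, 24.8 and 33.2 CPM in WT, a log2 fold change of -0.54 ± 0.23. *LRX1* stood at 6.94, 5.22 and 3.18 CPM in *bdr1*, against 6.75, 6.82 and 11.1 CPM in WT, a log2 fold change of -0.66 ± 0.25. Only *PRP3* had every *bdr1* library below every WT library, which held for 5.24% of all genes, and no gene had every library above, which held for 3.56%.

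Library *bdr1* 3 was the lowest of all 18 libraries for *EXPA7*, *RSL4*, *COW1*, *RHD2*, *PRP1*, *PRP3* and *LRX1*, and its 9 genes summed to 38.4 CPM, against 71.6 and 57.7 CPM in *bdr1* 1 and 2. The green shoot genes summed to 170033 CPM in *bdr1* 3, against 98400 and 153711 CPM in *bdr1* 1 and 2, and the part of shoot share or ribosomal RNA in the low values was not tested. Without *bdr1* 3 the log2 fold change in *bdr1* against WT was -0.51 for *PRP1*, -0.32 for *PRP3* and -0.44 for *LRX1*. That of *LRX1* was -0.38 without WT 3.

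In *bdr3*, these 3 genes had positive values. *LRX1* stood at 15.3, 16.9 and 14.2 CPM in *bdr3*, against 6.75, 6.82 and 11.1 CPM in WT, with no overlap, and had a log2 fold change of 0.91 ± 0.24 (edgeR quasi-likelihood test, adjusted p = 1). *PRP3* stood at 38.98, 55.6 and 37.3 CPM in *bdr3*, against 25.8, 24.8 and 33.2 CPM in WT, a log2 fold change of 0.65 ± 0.23 (adjusted p = 1). *PRP1* followed at 16.9, 24.1 and 16.2 CPM in *bdr3*, against 11.1, 13.5 and 14.8 CPM in WT. 5 genes, with *EXPA7* and *COW1*, had every *bdr3* library above every WT library, as did 4.34% of all genes, and none had every library below (4.81%).

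In *bdr2*, the values lay between. *EXPA7* stood at 7.83, 9.56 and 9.46 CPM in *bdr2*, against 6.81, 6.33 and 7.20 CPM in WT, a log2 fold change of 0.40 ± 0.17. *EXPA7*, *RSL4* and *COW1* had every *bdr2* library above every WT library, as did 2.2% of all genes, and none had every library below (1.91%).

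The single mutants were then set against each other, in a contrast chosen after these values had been seen, so its p-values restate those values and are no independent evidence. *PRP1*, *PRP3* and *LRX1* were lower in *bdr1* than in the mean of *bdr2* and *bdr3*, with log2 fold changes of -1.06 ± 0.20, -1.04 ± 0.21 and -1.27 ± 0.23 (edgeR adjusted p = 0.0221, 0.0380 and 0.0155). *LRX1* averaged 5.11 ± 1.88 CPM in *bdr1*, 10.2 ± 2.8 CPM in *bdr2* and 15.4 ± 1.4 CPM in *bdr3*. All 9 genes had negative values, with a median of -0.47, while 0.248% of all genes were called lower and 0.0199% higher. The calls of all 3 genes were lost when only these groups were fitted (adjusted p = 0.122, 0.142 and 0.0541), without *bdrs* 1, *bdr1* 3 and *fpa* 3 (0.130, 0.144 and 0.0932), without *bdr1* 2 (0.189, 0.123 and 0.107) and without *bdr1* 3 (0.208, 0.264 and 0.142). The log2 fold changes were the same with only these groups fitted, -0.98, -1.13 and -1.27 without *bdr1* 2, and -0.89, -0.83 and -1.05 without *bdr1* 3. Those of *PRP1* and *PRP3* were also lost without *bdr2* 1, *bdr2* 3 or *bdr3* 2, with adjusted p between 0.0511 and 0.0903.

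In the triple mutant these genes had higher means than in *bdr1*. *PRP1* averaged 14.3 ± 1.9 CPM in *bdrs* and 8.10 ± 2.80 CPM in *bdr1*, and *PRP3* averaged 34.8 ± 3.1 CPM in *bdrs* and 19.1 ± 5.8 CPM in *bdr1* (SD, n = 3 each). This pair of groups was not tested directly. Against the mean of the 3 single mutants, none of the 9 genes was called in *bdrs* by edgeR or DESeq2, where 4.01% of all genes were called higher and 3.5% lower. None had an unadjusted p under 0.05, where 10.1% of all genes were higher and 9.49% lower. *LRX1* had a log2 fold change of 0.36 ± 0.19 in that comparison (adjusted p = 0.319).

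Set directly against *fpa*, *bdrs* had none of the 9 genes called by edgeR, although 10.8% of all genes were called higher and 9.02% lower. *EXPA7* stood at 7.52, 7.74 and 9.94 CPM in *bdrs* and at 10.4, 10.5 and 12.9 CPM in *fpa*, without overlap, with a log2 fold change of -0.42 ± 0.17 (edgeR adjusted p = 0.0892). *LRX1* ran the other way, at 0.56 ± 0.25 (adjusted p = 0.113), and was called without *bdrs* 1, *bdr1* 3 and *fpa* 3 (0.75, adjusted p = 0.0492).

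The spread of the remaining genes differed between groups. *RHD2* stood at 5.55, 3.59 and 4.47 CPM in *bdrs*, against 3.98, 3.41 and 4.05 CPM in WT, and at 5.02, 1.80 and 1.63 CPM in *bdr1*. *COW1* averaged 3.17 ± 1.04 CPM in *bdr3*, 2.45 ± 0.16 in *bdr2*, 2.37 ± 0.83 in *fpa*, 1.99 ± 1.08 in *bdr1* and 1.92 ± 0.38 in WT. *RSL4* averaged 0.830 ± 0.434 CPM in *bdrs*, 0.871 ± 0.729 in *bdr1*, 1.02 ± 0.16 in *bdr2*, 1.12 ± 0.43 in *bdr3* and 0.641 ± 0.197 in WT. With groups ordered by their mean, 41 of the 45 neighbouring pairs over the 9 genes overlapped between libraries, and over all tested genes 4.36% of such pairs did not overlap. The 4 that did not were *bdrs* over WT for *EXPA7*, *bdrs* over *bdr2* for *COW1*, *fpa* over *bdr1* for *PRP3* and *bdr3* over *bdrs* for *LRX1*.

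*RHD6*, the upstream regulator, was the only 1 of the 9 genes called between the libraries numbered 3 and those numbered 1. In the libraries numbered 3 it stood at 1.59 CPM in *bdrs*, 1.12 in *bdr1*, 1.38 in *bdr2*, 0.968 in *bdr3*, 0.792 in *fpa* and 1.86 in WT. In those numbered 1 it stood at 1.90 CPM in *bdrs*, 2.30 in *bdr1*, 1.59 in *bdr2*, 2.73 in *bdr3*, 1.93 in *fpa* and 2.19 in WT, higher in all 6 groups. With group in the model, the log2 fold change of libraries numbered 3 against those numbered 1 was -0.70 ± 0.21 (edgeR adjusted p = 0.0271). *RSL4* was at -0.78 ± 0.31 (adjusted p = 0.0879), *RHD2* at -0.40 ± 0.21 (adjusted p = 0.215) and *COW1* at -0.29 ± 0.21 (adjusted p = 0.366). The 5 wall genes lay between 0.05 and 0.18.

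In that contrast 7.91% of all genes were called higher and 9.04% lower, so 1 of the 9 genes called lower was near the share of all genes. Of the 17 green shoot genes, 12 were called higher and none lower. The call for *RHD6* was lost without *bdrs* 1, *bdr1* 3 and *fpa* 3 (adjusted p = 0.173) and without *bdr1* 1, *bdr1* 3, *bdr2* 3, *bdr3* 1, *bdr3* 3, *fpa* 1 or *fpa* 3 (adjusted p between 0.0533 and 0.0984). The part of shoot share in the value of *RHD6* was not tested.

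**Figure D4:**
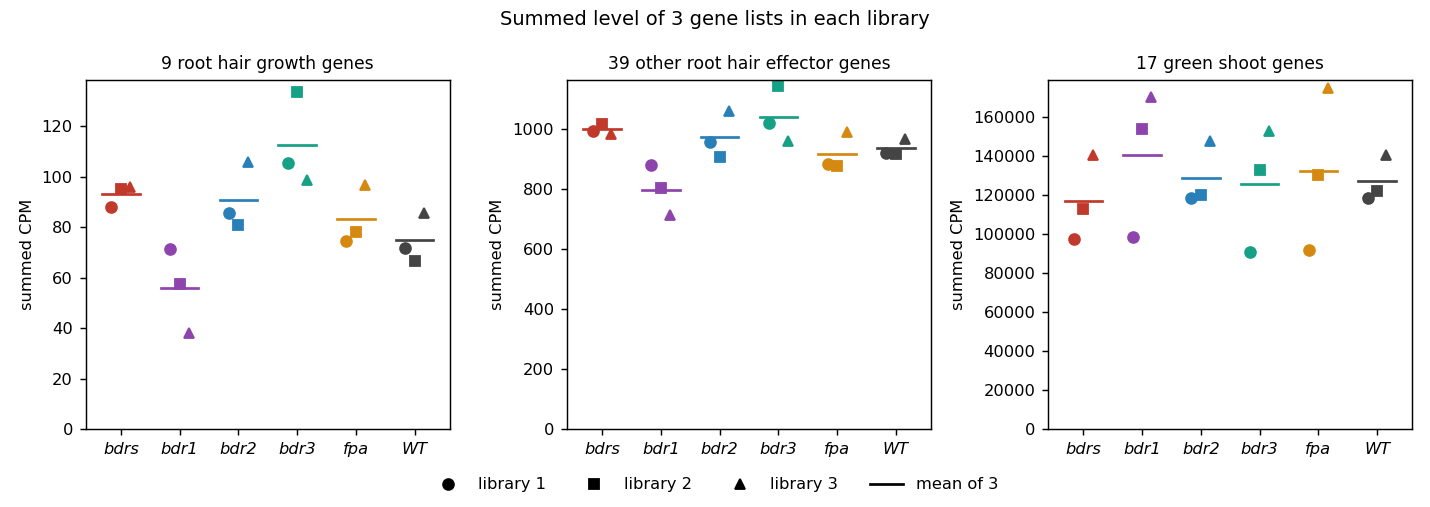
Summed CPM (vertical axes, from 0) of the 9 genes, of 39 other root hair effector genes and of 17 green shoot genes in each library, by group, with symbols for library numbers and lines for group means. The 9 genes summed to 55.9 ± 16.7 CPM in *bdr1* and 112.6 ± 18.6 CPM in *bdr3*, against 74.8 ± 9.8 CPM in WT. These sums are weighted to abundant genes: *PRP3* alone averaged 19.1 ± 5.8 CPM in *bdr1*, 43.9 ± 10.1 in *bdr3* and 27.9 ± 4.6 in WT. *RSL4* and *COW1* had positive log2 fold changes in *bdr1* against WT (0.56 and 0.12), and *RHD6* a negative one in *bdr3* (-0.06). The green shoot genes were higher in libraries numbered 3 (triangles) than in those numbered 1 (circles).

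Within libraries, *PRP1*, *PRP3* and *LRX1* moved together. Over the 18 libraries Pearson's r of log2 CPM was 0.95 between *PRP1* and *PRP3*, 0.96 between *PRP3* and *LRX1* and 0.93 between *PRP1* and *LRX1* (Spearman's rho 0.96, 0.91 and 0.91). After group means were subtracted, r was 0.87, 0.91 and 0.85. *EXPA7* and *EXPA18* had r = 0.77 (0.58 with group means subtracted), and *COW1* and *RHD2* had r = 0.76 (0.75 with group means subtracted). *RHD6* and *EXPA18* had r = -0.21. The points share libraries, and the values are given as a description of 36 pairs.

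**Figure D5:**
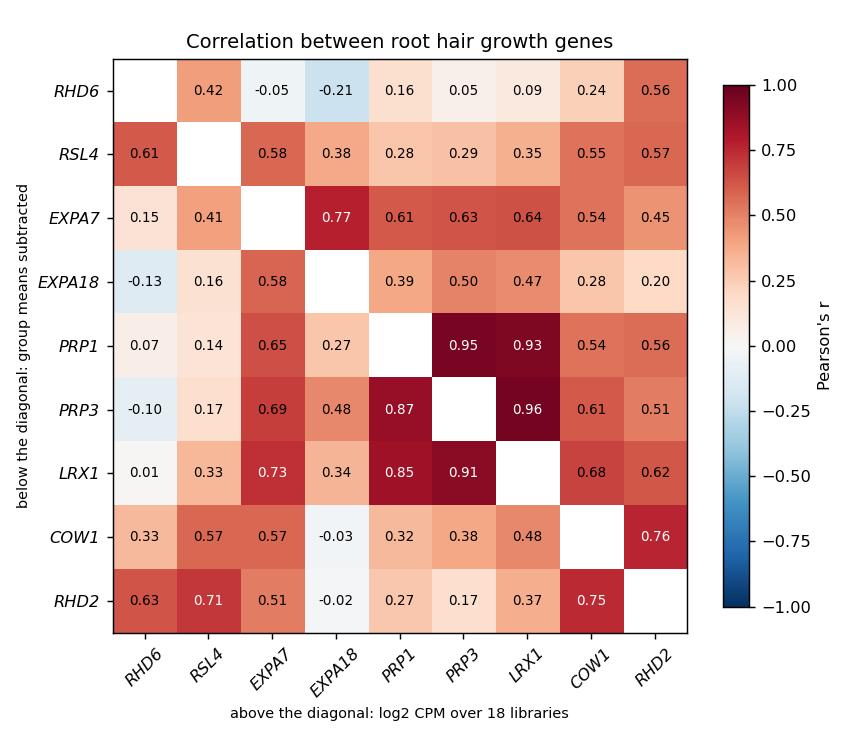
Pearson's r between the 9 genes over 18 libraries, with log2 CPM above the diagonal and with group means subtracted below it; the colour scale runs from -1 to 1. *PRP1*, *PRP3* and *LRX1* form the block with the highest values (0.93 to 0.96 above and 0.85 to 0.91 below the diagonal).

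The genes outside the 9 whose log2 CPM over 18 libraries was most like their mean standardised level were sought among 18376 genes with at least 1 CPM. The first 10 were *EXT8* (AT4G08410, r = 0.90), the extensins *EXT10*, *EXT6*, *EXT12* and *EXT13*, the proton pump gene *HA7*, *CEP2*, *CYP82F1*, *ST4B* and AT5G47530 (r = 0.82). 6 of these 10 were on the list of other root hair effectors. After group means were subtracted, *EXT8*, *EXT6*, *EXT13*, *OXI1* and the peroxidase gene *PRX44* were again effectors among the first 10, and *RPF1*, *NAC007*, AT4G25090, AT3G44400 and *CRK34* were not. The mean standardised level of the 39 effectors had r = 0.95 with that of the 9 genes over libraries. The r was 0.54 for 18 other root tissue genes, 0.0053 for 11 epidermal patterning genes and -0.49 for the green shoot genes. In the same order Spearman's rho was 0.77, 0.65, 0.21 and -0.23, a smaller gap between effectors and other root tissue genes. Library *bdr1* 3 had the lowest mean level of both the 9 genes (-2.24) and the effectors (-1.76).

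Some other effectors of hair growth were called in *bdrs* against WT: 4 of the 39 were higher, where 1.89% of all genes were, and 1 was lower, near the share of all genes (2.78%). *OXI1*, a kinase of reactive oxygen signalling in hairs, stood at 3.94 ± 0.52 CPM in *bdrs* and 1.53 ± 0.42 CPM in WT (log2 fold change 1.37 ± 0.26, edgeR adjusted p = 0.00229). The extensin genes *EXT9* and *EXT10*, neighbours on the chromosome, had log2 fold changes of 1.18 ± 0.28 and 0.86 ± 0.24, and *RHS2* one of 0.76 ± 0.19. *TRH1*, a potassium transporter gene needed for tip growth, was lower, at 58.0 ± 5.8 CPM in *bdrs* and 79.3 ± 7.0 CPM in WT (log2 fold change -0.45 ± 0.12). Extensin genes are repetitive. The study kept only uniquely aligned reads, and how many reads of these genes that filter removed was not checked. The median of the 39 was 0.36.

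Few genes of the remaining lists were called in *bdrs*. None of 11 epidermal patterning genes, of 4 tested basic helix-loop-helix relatives of *RHD6* and *RSL4*, of 10 family relatives used outside hairs or of 17 green shoot genes was called. *RSL1*, *RSL3* and *RSL5* had at most 9, 2 and 7 counts in any library and were not tested. Of 18 tested genes of other root tissues, 1 was called higher, *SGN3*, a receptor kinase of the endodermal barrier, at 14.3 ± 2.0 CPM in *bdrs* and 8.57 ± 1.10 CPM in WT.

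In *fpa* against WT, 1 of the 39 effectors was called higher and none lower, where 1.31% of all genes were higher and 3.12% lower. It was the peroxidase gene *PRX73*, at 12.5 ± 1.7 CPM in *fpa* and 6.74 ± 1.26 CPM in WT. Of the 10 family relatives, 2 were called lower. These were *LRX3* and *LRX4*, relatives of *LRX1* used mainly outside root hairs, with log2 fold changes of -0.66 ± 0.18 and -0.65 ± 0.16. *LRX1* itself was at -0.0076 ± 0.25. *SCR*, which specifies the endodermis, was the 1 gene called, also lower, of 18 tested genes of other root tissues (-0.59 ± 0.16). In *bdr1*, *bdr2* and *bdr3* against WT no gene of these lists was called.

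In the direct comparison of *bdrs* with *fpa*, 7 of the 39 effectors were called higher and 2 lower, where 10.8% of all genes were higher and 9.02% lower. Those effectors higher in *bdrs* were *CSLD3*, *RHS2*, *OXI1*, *EXT6*, *EXT9*, *EXT10* and *EXT17*. Also called higher were 3 of 11 patterning genes (*GL2*, *TTG1* and *JKD*) and 1 of 4 tested regulators (*LRL2*). So were 2 of 10 family relatives (*LRX4* and *LRX5*) and 2 of 18 other root tissue genes (*SCR* and *SGN3*). The patterning genes did not move as a set: at an unadjusted p under 0.05 (edgeR) 3 of the 11 were higher and 2 lower. *CPC* averaged 1.64 ± 0.11 CPM in *bdrs* and 2.32 ± 0.24 CPM in *fpa*, and *TRY* 1.92 ± 0.55 and 2.88 ± 0.26 CPM. *PRX60* and *XTH13*, a peroxidase and a wall-remodelling enzyme, were lower, at -1.37 ± 0.26 and -0.85 ± 0.29. *EXT9* had the largest positive value, 1.43 ± 0.29.

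Against the mean of the single mutants, 7 of the 39 effectors were called higher in *bdrs* and 2 lower, where 4.01% of all genes were higher and 3.5% lower. *OXI1* (1.62 ± 0.20), *EXT9* (1.11 ± 0.21), *RHS15* (0.86 ± 0.21), *EXT8* (0.81 ± 0.23), *RHS2* (0.80 ± 0.15), *PRX44* (0.65 ± 0.18) and *EXT10* (0.63 ± 0.19) were higher. *PRX60* (-0.86 ± 0.22), *TRH1* (-0.35 ± 0.10) and the patterning gene *TRY* (-0.65 ± 0.19) were lower. In *bdr1* against the mean of *bdr2* and *bdr3*, 4 of the 39 effectors were called lower, where 0.248% of all genes were. All 4 were extensin genes: *EXT8* (-1.35 ± 0.28), *EXT9* (-1.35 ± 0.27), *EXT10* (-1.10 ± 0.22) and *EXT17* (-1.09 ± 0.20). That contrast was chosen after values of the single mutants had been seen, so these calls are no independent evidence. The calls of *PRP1*, *PRP3* and *LRX1* in it were lost without *bdr1* 2 or *bdr1* 3. Whether the extensin calls hold without these libraries was not tested. Library *bdr1* 3 had the lowest summed level of the effectors (712 CPM).

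Between the libraries numbered 3 and those numbered 1, 4 of the 39 effectors were lower and none higher, the lower share being near that of all genes (9.04%). They were *PIP5K3* (-1.09 ± 0.26), which makes a phosphoinositide of the hair tip, *RHS12* (-0.62 ± 0.19), *PRX73* (-0.43 ± 0.13) and the receptor-like kinase gene *ERU* (-0.42 ± 0.12). Of the 10 family relatives, 4 were called higher, where 7.91% of all genes were: *PRP4* (0.58 ± 0.12), *PRP2* (0.47 ± 0.10), *LRX5* (0.43 ± 0.11) and *EXPA10* (0.32 ± 0.08). Nearer that share were 1 of 11 patterning genes (*TTG1*) and 2 of 18 tested genes of other root tissues (*CO2* and *PEP*), also called higher.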

How the data were processed

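RNA-seq counts of whole seedlings (18 libraries, 6 groups of 3) were analysed. The authors aligned reads with STAR 2.5.2b, processed them with SAMtools 1.3.1 and counted reads per TAIR10 gene with featureCounts, according to the submitters' processing notes. The paper states that only uniquely aligned reads were kept and that libraries were made with a stranded kit. No source used here states the strand setting of the counting. The deposited raw table holds these counts, not normalized. The deposited normalized table is a signal that the authors made with DESeq2 1.14.1 in R 3.3.2, and its 23577 genes were used as another gene filter.

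All groups entered 1 quasi-likelihood fit of the counts (edgeR 4.0.16 in R 4.3.3, TMM factors, filterByExpr) with 12 residual degrees of freedom, and p-values were adjusted by Benjamini-Hochberg over 20143 genes (threshold 0.05). DESeq2 1.42.0, other filters and size factors, a replicate block and left-out libraries were alternatives. Correlations used log2 CPM with a prior count of 2. No library was a duplicate of another in its group (chi-square divided by degrees of freedom was 12.9 or more for every pair). Depth limited the precision of the genes with few counts.

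The 9 genes, the gene lists and the tests were chosen with earlier results of these data known. All 9 genes were named, and of the other lists those called in any comparison. Gene positions and sequences are from RefSeq for TAIR10.1, whose gene models are newer than those the authors counted.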

Additional observations from a re-analysis of the deposited data

Results flagged for a closer look

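In *bdr1* against the mean of *bdr2* and *bdr3*, 3 of the 9 genes were called lower by edgeR, where 0.248% of all genes were. The contrast was chosen after the values had been seen, so the test restates them and is no independent evidence of a difference. The log2 fold change was -1.06 for *PRP1*, which averaged 8.10 ± 2.80 CPM in *bdr1*, 15.4 ± 2.8 CPM in *bdr2* and 19.1 ± 4.4 CPM in *bdr3*. It was -1.04 for *PRP3*, which averaged 19.1 ± 5.8 CPM in *bdr1*, 35.6 ± 8.8 CPM in *bdr2* and 43.9 ± 10.13 CPM in *bdr3*. It was -1.27 for *LRX1*, the largest of the 9 genes in that contrast (SD, n = 3 in each group). All 3 calls were lost with only these groups fitted, where the log2 fold changes were the same, and without *bdr1* 2 or *bdr1* 3.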

How the results depend on the processing

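Over 9 genes and 9 comparisons, 621 values were refitted under settings other than leaving out a library: 613 kept their side of the threshold, 7 lost a call and 1 gained one. Another 621 refits left out 1 library each, of which 597 kept their side, 21 lost a call and 3 gained one. No called value changed sign. Among uncalled values the sign changed in 9 and 33 of these fits.
In *fpa* against WT the count over all genes was 1362 with a replicate block, against 893 without. In *bdr1* against WT it was 26 with DESeq2, 11 with no filter and 9 on the authors' gene set, against 5, and in *bdr3* against WT it was 8 with DESeq2, 53 with only these groups fitted and 15 without *bdrs* 1, *bdr1* 3 and *fpa* 3, which were rich in ribosomal RNA, against 4. In *bdrs* against *fpa*, 1 of the 9 genes was called without those libraries, against 0. For *bdr1* against the mean of *bdr2* and *bdr3*, all genes gave 146 with DESeq2, 82 with the block and 24 without those libraries, against 54, and the 9 genes gave 0 with only the groups fitted or without those libraries, against 3. For libraries numbered 3 against 1, the 9 genes gave 0 and all genes 1320 without those libraries, against 1 and 3414. The cause was not tested.

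Leaving out 1 library gave 0 to 1 of the 9 genes in *fpa* against WT, 0 to 5 in *bdr1* against the mean of *bdr2* and *bdr3*, 0 to 2 between library numbers and 0 to 0 elsewhere. Over all genes it gave 525 (without *bdrs* 2) to 1417 (without *bdrs* 1) in *bdrs*, 476 (without WT 2) to 804 in *fpa*, 4 to 5 in *bdr1*, 4 to 7 in *bdr2* and 3 to 4 in *bdr3*, each against WT. It gave 1224 to 5610 for *bdrs* against *fpa*, 754 to 2108 for *bdrs* against the mean of the single mutants, 15 (without *bdr1* 2) to 469 (without *bdr1* 1) for *bdr1* against *bdr2* and *bdr3*, and 1883 to 4962 between library numbers. Without *bdr1* 1, *EXPA7* (-0.75, edgeR adjusted p = 0.0365) and *RHD2* (-1.24, 0.0381) were also called lower in *bdr1* than in *bdr2* and *bdr3*. Without *bdr2* 1, *RHD2* was called lower in libraries numbered 3 (-0.60, 0.0348).

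The labels do not say that library numbers mark a shared batch, and not every same-numbered pair deviated together, so the numbers were not used as pairs. The r of their deviations was over 0.1 in 27 of 45 same-numbered pairs (lowest -0.35, median 0.19) and in 19 of 90 pairs of different number (median -0.059), and 14 of 18 libraries were closest to their own number, a hint from the data that numbers share something. The replicate block gave 1238 genes for *bdrs* against WT and 5336 for *bdrs* against *fpa*, and did not change the counts among the 9 genes. With 2 to 48 counts in *RSL4* and *RHD6*, small changes were not detectable at this depth.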
